A study of Homo sapiens with 12 samples.

Results

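Of the 9958 regions deposited as m7G peaks, 607 (6.10%) overlapped the bodies of several protein-coding genes by at least 1 base, and these overlap peaks are described here with their gene pairs. They were found by comparing each peak's chromosome, start and end with the 20056 coding genes of RefSeq on GRCh38, leaving out 108 readthrough genes whose symbols join those of their neighbours. A further 9168 peaks lay in 1 coding gene and 183 in none. The rule used coordinates alone, though the regions are peak calls from these data and earlier results of the data were known.

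The cells were THP-1, a human monocytic leukemia line, and every group had received PMA (a phorbol ester that makes these cells adhere) at 100 ng/ml for 48 h. The 4 groups were KD IP and KD IN, from cells with a short hairpin against METTL1, and NC IP and NC IN, from control cells, with 3 libraries each. IP stands for RNA pulled down with the m7G antibody, and IN was read as the input RNA before it. The labels gave polyadenylated RNA as the source, did not say whether the knockdown cells came from 1 clone, and did not say whether replicates were separate cultures, so p-values measure the spread between these libraries, which may be technical.

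In m7G meRIP-seq, RNA fragments are pulled down with an antibody against 7-methylguanosine, the base that caps mRNAs made in the nucleus but not those of mitochondria, occurs in tRNA and rRNA, and has been mapped inside mRNAs. METTL1 is the catalytic partner of WDR4 in the enzyme that places m7G in the variable loop of tRNAs. Coding genes overlap in a few ways. Divergent neighbours can start within each other (head to head), convergent neighbours can run past each other's ends (tail to tail), small genes can sit in an intron of a larger gene, and mitochondrial ATP8 with ATP6, and ND4L with ND4, are read from the same mRNA in overlapping frames. A fragment from such a place can come from either gene.

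The overlap peaks held 372 different gene sets with 731 gene names. Of the peaks, 598 lay in 2 genes and 9 in 3 genes. The 3-gene peaks were 6 at IL4I1/NUP62/ATF5 (an amino acid oxidase of macrophages, a nuclear pore protein and a stress transcription factor), 2 at mitochondrial ATP8/ATP6/COX3 and 1 at TMEM217B/TMEM217/TBC1D22B. The most peaks, 9, fell on KIAA0753/LOC122526780. A total of 216 gene sets had 1 peak, 110 had 2 and 46 had 3 or more. Each peak had been called in the KD or the NC set and could stand in the table in both, so overlapping entries merged into 427 separate places.

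Sequence could be shown where an overlap peak reached a promoter window of RefSeq (GRCh38.p14), which runs from 250 bases before to 50 bases after a gene's start. Such a window was reached by 161 overlap peaks (26.5%), and the 134 windows so reached had a median GC content of 67%, against 58.7% over the 35116 windows of the table. The windows below belong to pairs on which the results turn. They are given 5′ to 3′ on the gene's own strand, with the bases inside the peak in capitals. For LNX2 (a RING finger protein) and POLR1D (a subunit of RNA polymerases I and III) on chromosome 13, whose gene bodies overlap head to head, the windows are chr13:27620480-27620779 on the minus strand and chr13:27620493-27620792 on the plus strand. Capitals mark 38 and 51 bases of the same peak, and the windows are reverse complements of each other over their common part. The LNX2 window belongs to a start inside the annotated gene body, and its capitals lie upstream of that start, while those of POLR1D run on from the start of that gene.
LNX2: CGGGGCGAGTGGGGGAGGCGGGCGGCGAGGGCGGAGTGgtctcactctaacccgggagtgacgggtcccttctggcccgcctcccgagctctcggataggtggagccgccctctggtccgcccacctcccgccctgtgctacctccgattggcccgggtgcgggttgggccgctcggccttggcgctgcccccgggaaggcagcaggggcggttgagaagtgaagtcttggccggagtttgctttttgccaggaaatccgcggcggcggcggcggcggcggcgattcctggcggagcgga
POLR1D: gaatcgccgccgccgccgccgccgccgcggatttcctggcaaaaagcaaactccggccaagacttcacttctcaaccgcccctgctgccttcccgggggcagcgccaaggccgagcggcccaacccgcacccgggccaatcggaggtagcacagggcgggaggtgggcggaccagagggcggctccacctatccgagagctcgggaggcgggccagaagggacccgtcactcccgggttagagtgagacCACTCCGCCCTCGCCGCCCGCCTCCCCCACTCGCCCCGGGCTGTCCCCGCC

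For GNG5 (a G protein gamma subunit) and SPATA1 (a spermatogenesis-associated gene), the windows are chr1:84506532-84506831 on the minus strand and chr1:84506136-84506435 on the plus strand. This pair is shown because it had the lowest IP over IN of all tested overlap peaks in both KD and NC cells. Capitals mark 126 and 76 bases, so that the peak covered both gene starts.
GNG5: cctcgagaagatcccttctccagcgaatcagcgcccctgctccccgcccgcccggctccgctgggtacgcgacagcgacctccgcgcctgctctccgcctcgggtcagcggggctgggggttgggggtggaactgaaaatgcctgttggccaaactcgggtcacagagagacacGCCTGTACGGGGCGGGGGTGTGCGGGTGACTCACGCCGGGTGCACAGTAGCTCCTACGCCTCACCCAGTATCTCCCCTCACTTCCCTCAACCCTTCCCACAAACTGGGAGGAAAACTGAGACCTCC
SPATA1: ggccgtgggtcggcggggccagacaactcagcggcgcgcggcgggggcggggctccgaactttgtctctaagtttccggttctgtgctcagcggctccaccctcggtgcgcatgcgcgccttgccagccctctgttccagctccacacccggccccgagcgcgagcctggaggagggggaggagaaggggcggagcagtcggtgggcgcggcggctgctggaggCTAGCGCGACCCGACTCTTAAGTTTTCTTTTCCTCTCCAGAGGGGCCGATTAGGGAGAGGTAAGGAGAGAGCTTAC

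The last 4 windows belong to the pair with the lowest input in KD against NC among those with reads in every library (LARP6 of LARP6/LRRC49, chr15:70854108-70854407, minus strand, 50 bases in the peak), to the nuclear pair with the most reads (TMA7 of CCDC51/TMA7, chr3:48440007-48440306, plus strand, 119 bases), to a divergent pair whose bodies do not touch but whose gap lies within the peak (DNAJC7 of DNAJC7/NKIRAS2, chr17:42017390-42017689, minus strand, all 300 bases) and to the pair with the smallest p for a change of enrichment (FXR2 of FXR2/SHBG, chr17:7614848-7615147, minus strand, 50 bases).
LARP6: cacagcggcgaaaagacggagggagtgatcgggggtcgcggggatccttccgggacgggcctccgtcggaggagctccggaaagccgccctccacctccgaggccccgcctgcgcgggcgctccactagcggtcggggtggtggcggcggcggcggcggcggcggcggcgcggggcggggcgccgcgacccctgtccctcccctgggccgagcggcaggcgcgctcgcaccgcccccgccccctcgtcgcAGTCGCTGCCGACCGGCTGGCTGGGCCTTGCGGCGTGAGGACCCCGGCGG
TMA7: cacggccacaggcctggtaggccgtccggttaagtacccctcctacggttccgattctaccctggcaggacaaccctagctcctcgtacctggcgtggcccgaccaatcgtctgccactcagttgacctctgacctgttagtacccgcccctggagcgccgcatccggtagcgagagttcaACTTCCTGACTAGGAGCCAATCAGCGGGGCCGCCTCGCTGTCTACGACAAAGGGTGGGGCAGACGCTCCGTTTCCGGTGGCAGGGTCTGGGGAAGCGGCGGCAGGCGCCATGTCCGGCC
DNAJC7: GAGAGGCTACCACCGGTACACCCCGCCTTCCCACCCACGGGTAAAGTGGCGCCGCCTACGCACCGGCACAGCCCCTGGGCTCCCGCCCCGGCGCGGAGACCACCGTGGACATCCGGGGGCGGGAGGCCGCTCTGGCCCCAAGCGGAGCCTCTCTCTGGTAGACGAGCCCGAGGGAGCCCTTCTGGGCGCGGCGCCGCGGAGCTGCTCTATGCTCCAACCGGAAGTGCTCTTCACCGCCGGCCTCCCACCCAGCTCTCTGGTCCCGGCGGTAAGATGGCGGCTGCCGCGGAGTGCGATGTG
FXR2: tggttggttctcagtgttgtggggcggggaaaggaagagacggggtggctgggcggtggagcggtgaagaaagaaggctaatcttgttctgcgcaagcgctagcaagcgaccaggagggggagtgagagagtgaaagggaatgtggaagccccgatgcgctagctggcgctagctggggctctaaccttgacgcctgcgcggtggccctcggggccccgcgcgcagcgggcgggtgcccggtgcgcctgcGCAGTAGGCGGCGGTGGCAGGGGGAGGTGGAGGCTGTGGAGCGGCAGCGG

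Gene bodies overlapped in part for 419 peaks (69.0%, 258 gene sets), and 1 gene lay inside the other for 166 (27.3%, 101 gene sets). In 13 peaks from 10 pairs the genes did not touch and the peak bridged them. The strand of both genes was known from RefSeq promoter windows for 411 peaks in 2 genes. Of these, 132 lay on head to head pairs (87 pairs), 143 on tail to tail pairs (90 pairs), 73 on nested pairs of opposite strands (45 pairs) and 63 on pairs of the same strand (37 pairs). Chromosome 17 held 60 overlap peaks, chromosome 19 held 58, chromosome 1 held 47 and chromosome 16 held 44. Chromosome 17 took 9.88% of overlap peaks and 7.0% of all peaks. Chromosome 1 took 7.74% of overlap peaks and 11.3% of all peaks. These shares were not tested.

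The deposited strand of a peak followed an annotated gene. Among peaks in 1 coding gene with known strand, 7323 of 7438 (98.5%) carried the gene's strand. Of the 411 overlap peaks, 348 had 1 gene on their strand and 1 opposite, 63 had both genes on their strand, and 0 had neither. A peak on the opposite strand, of either set, overlapped 154 overlap peaks (25.4%) by at least 1 base, against 124 (1.35%) of the peaks in 1 coding gene.

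The read counts did not differ in the same way by strand. For 32 pairs of opposite-strand peaks that shared at least 90% of their extent, of which 23 were pairs of overlap peaks, the reads summed over the 12 libraries differed by a median of 5.10%. POLR1G/ERCC1 (an RNA polymerase I subunit and a DNA repair endonuclease subunit) had 3229 reads in its plus-strand KD peak and 3232 in its minus-strand KD peak, a difference of 0.0929%. GARIN5A/EMC10 had 2249 and 2239 reads in its plus- and minus-strand NC peaks, and NDUFC1/NAA15 had 1128 and 1105 in its KD peaks. These examples were chosen after their values were seen. In the 6 pairs of overlap peaks with at least 100 reads the difference was 5.07% at most, and in all 10 pairs with at least 100 reads it was 19.8% at most. The counts therefore showed no clear separation by strand at these places, and the other overlap peaks could not be examined in this way. Of the 607 overlap peaks, 441 lay wholly inside 2 genes. The rest had bases outside such an overlap, but counts are given per peak only. Reads of an overlap peak were therefore not assigned to either gene. Every value below belongs to the place and is named by the gene pair.

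**Figure D1:**
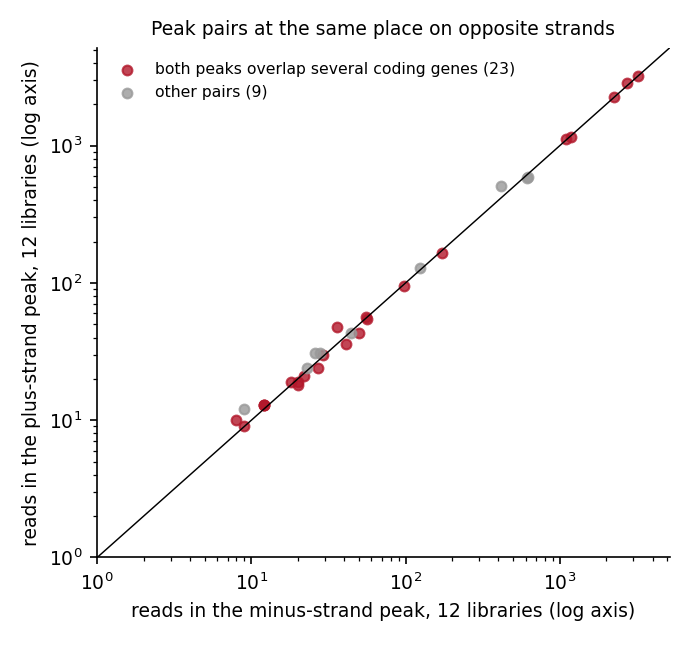
Reads over the 12 libraries in 32 pairs of peaks at the same place on opposite strands, with the minus-strand peak on the x axis and the plus-strand peak on the y axis (both log axes) and the line of equal counts. Points lie along the line, and the median difference was 5.10%.

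Position along the gene was taken as the first 500 bases, the last 500 bases or the inside. For the 348 peaks with genes on both strands, 125 (35.9%) touched the first 500 bases of the gene on their own strand, 180 (51.7%) lay inside it and 43 (12.4%) touched its last 500 bases. For the gene on the opposite strand the shares were 27.9%, 61.8% and 10.3%. Peaks in 1 coding gene had 29.5%, 61.8% and 8.70%. On head to head pairs, 76 of the 132 peaks (53 pairs) lay at the 5′ ends of both genes. On tail to tail pairs, 93 of 143 peaks (55 pairs) lay inside both genes, away from the 500 bases at either end, and 17 touched both 3′ ends.

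**Figure D2:**
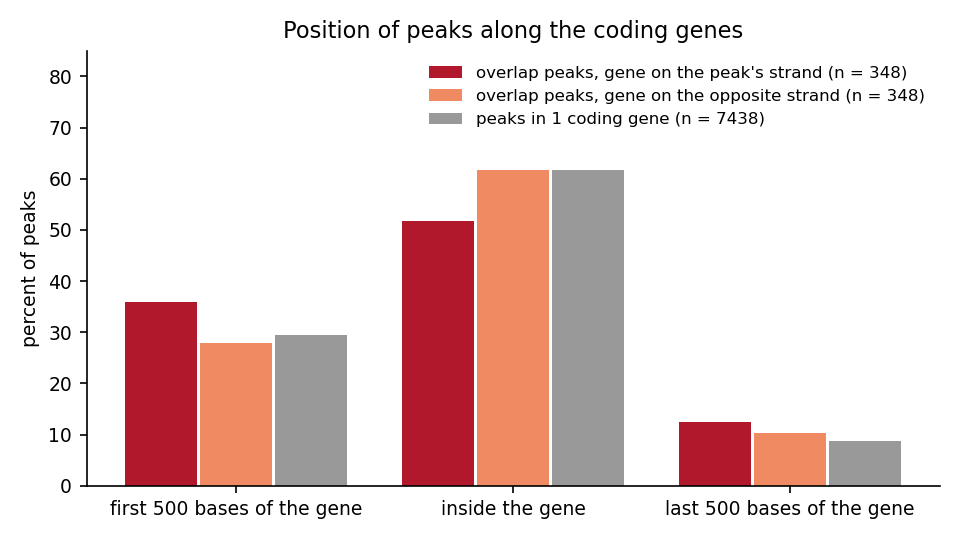
Percent of peaks (y axis) at the first 500 bases, inside or at the last 500 bases of a gene, for overlap peaks by the gene on the peak's strand and by the gene on the opposite strand (n = 348) and for peaks in 1 coding gene (n = 7438). The bars at the gene start are 35.9%, 27.9% and 29.5%.

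Overlap peaks had a median length of 181 bases (60 to 928), as had peaks in 1 coding gene. The authors' deposited fold of IP over input per peak had a median of 9.82 (1.23 to 185) in overlap peaks and 8.63 in peaks in 1 coding gene. The deposited q-value of the call was at most 0.05 for 452 of the 607 overlap peaks, and the highest was 0.415. Reads of overlap peaks over the 12 libraries had a median of 57, against 91 for peaks in 1 coding gene. The KD set held 287 of the overlap peaks and the NC set 320. Of the gene sets, 99 occurred in both peak sets, 123 in KD alone and 150 in NC alone. An overlap peak was shared when a peak of the other set overlapped it by at least 1 base, on either strand. This held for 225 of 607 (37.1%, 95% Wilson interval 33.3% to 41.0%), against 3607 of 9168 (39.3%, 38.3% to 40.3%) of peaks in 1 coding gene. The share was 29.98% where 50% of both peaks had to overlap. Among overlap peaks in the upper 50% of their set by the authors' fold it was 14.72%. That value counted only peaks of the other set that were also in the upper 50% of theirs. Among overlap peaks the share was 44.7% on head to head pairs and 25.2% on tail to tail pairs.

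Reads in all peaks ranged from 907024 to 1888972 per library, and these sums are not the sequencing depth. Levels are CPM, read counts scaled to the TMM-adjusted total of reads in tested peaks of the library, so IP over IN sets a region against the average peak region and not against the transcriptome. Overlap peaks took 7.86% to 8.58% of the reads in KD IP libraries and 5.27% to 7.09% in KD IN libraries, and 7.56% to 9.21% in NC IP libraries and 6.30% to 7.96% in NC IN libraries. The 6 mitochondrial entries took 4.32% to 5.08% of a KD IP library and 2.31% to 4.24% of a KD IN library, and 3.53% to 5.48% of an NC IP library and 3.30% to 5.22% of an NC IN library.

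The mitochondrial peaks coincided with whole genes. The peak over ATP6, a subunit of ATP synthase, ran over chrMT:8527-9207, overlapped the end of ATP8 (another subunit) and shared 1 base with COX3 (a subunit of cytochrome c oxidase). It had 15900, 14100 and 11200 CPM in KD IP and 17800, 13700 and 8920 CPM in KD IN libraries. In NC IP libraries it had 9880, 16800 and 16700 CPM, and in NC IN libraries 14000, 23700 and 17100 CPM. Its IP and IN libraries overlapped in both conditions, and its IP over IN did not pass the test in KD (log2 0.02 ± 0.20 SE, adjusted p = 0.934) or in NC (-0.34 ± 0.20, adjusted p = 0.181), by edgeR's quasi-likelihood test with Benjamini-Hochberg adjustment over 5113 regions, which gave all adjusted p-values and standard errors unless another source is named.

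The smaller genes that open these bicistronic mRNAs stood higher in the IP. The peak over ATP8 (chrMT:8366-8572), which shares its end with ATP6, had 5400, 5340 and 5750 CPM in KD IP against 3270, 2770 and 1990 CPM in KD IN, and 3710, 5390 and 5210 CPM in NC IP against 2610, 3940 and 2750 CPM in NC IN. The KD libraries did not overlap, and in NC the highest IN library exceeded the lowest IP library. IP over IN was 1.04 ± 0.16 (log2, adjusted p = 8.21e-06) in KD and 0.62 ± 0.16 (adjusted p = 0.00223) in NC. The peak over ND4L (chrMT:10470-10766), a complex I subunit overlapping ND4, had 3110, 3040 and 3350 CPM in KD IP against 1990, 1730 and 1070 CPM in KD IN, and 2090, 3000 and 3220 CPM in NC IP against 1520, 2270 and 1620 CPM in NC IN. Its IP over IN was 0.99 ± 0.17 in KD (adjusted p = 5.69e-05) and 0.62 ± 0.17 in NC (adjusted p = 0.00519). None of the 6 mitochondrial entries, tested at 3 places, passed between KD and NC in input or in IP (smallest adjusted p = 0.0911).

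The comparison of IP with IN asks which overlap peaks stood higher in IP than the average peak. The authors had already called these regions by IP over input in KD or NC, so the values are not independent of that choice. Among tested overlap peaks called in KD alone, the median log2 was 0.07 in KD and -0.54 in NC. Among those called in NC alone, it was -0.57 in KD and 0.58 in NC. After the filter on low counts (edgeR's filterByExpr), 282 of the 607 overlap peaks were tested. In KD cells 80 of them (28.4%) were higher in IP and 53 (18.8%) lower, where 23.5% of all tested regions were higher and 21.4% lower, and the median log2 was 0.33, against 0.23 over all regions. In NC cells 82 (29.1%) were higher and 51 (18.1%) lower, where 22.7% of all tested regions were higher and 24% lower, and the median was 0.34, against 0.13. With library size as the scaling in place of TMM the splits were 104 higher and 36 lower in KD and 107 higher and 27 lower in NC, while the median of all regions moved up by 0.17 in KD and 0.29 in NC. These counts are over entries of the table, which overlap one another. With 1 entry per place, the one with most reads, 170 were tested, and the split was near even, with 40 higher and 39 lower in KD and 37 higher and 35 lower in NC.

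The counts differed by position along the gene. Of 96 tested overlap peaks at the 5′ end of a gene on their strand, 34 were higher in IP and 12 lower in KD, and 30 were higher and 8 lower in NC. Of 86 tested inside such a gene, 18 were higher and 26 lower in KD, and 13 were higher and 24 lower in NC. Peaks in 1 coding gene had the same order, with 428 higher and 221 lower of 1461 at the 5′ end and 363 higher and 615 lower of 2138 inside, in KD. By arrangement, head to head pairs had 29 higher and 12 lower of 83 tested in KD and 21 higher and 7 lower in NC. Tail to tail pairs had 10 higher and 13 lower of 44 in KD, and 11 higher and 11 lower in NC. Same-strand pairs had 8 higher and 4 lower of 34 in KD, and 17 higher and 6 lower in NC. Nested pairs of opposite strands had 7 higher and 11 lower of 37 in KD, and 7 higher and 10 lower in NC. Over all tested regions 23.5% were higher and 21.4% lower in KD, and 22.7% higher and 24% lower in NC. These classes also count overlapping entries, and differences between them were not tested.

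DSE/TSPYL1 was among the overlap peaks with the most reads that were higher in IP. TSPYL1, a gene without introns related to nucleosome assembly proteins, lies within DSE, which encodes dermatan sulfate epimerase, on the other strand. The peak at the 5′ end of TSPYL1 (chr6:116279035-116279870) had 1770, 1610 and 1990 CPM in KD IP against 584, 672 and 666 CPM in KD IN, and 2260, 1860 and 2190 CPM in NC IP against 1000, 888 and 1030 CPM in NC IN. All IP libraries lay above all IN libraries, with a log2 of 1.48 ± 0.11 in KD (adjusted p = 1.13e-10) and 1.11 ± 0.11 in NC (adjusted p = 9.42e-09). MRPL43/TWNK (a mitochondrial ribosomal protein and the mitochondrial DNA helicase), a pair of neighbours bridged by the peak at chr10:100987487-100988146, had 413, 349 and 341 CPM in KD IP against 123, 150 and 153 CPM in KD IN. In NC it had 677, 756 and 630 CPM in IP against 261, 312 and 336 CPM in IN. Its IP over IN was 1.37 ± 0.14 in KD (adjusted p = 1.33e-08) and 1.18 ± 0.13 in NC (adjusted p = 4.75e-08).

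LNX2/POLR1D, whose windows are printed above, was also higher in IP, with an IP over IN of 1.64 ± 0.35 in KD (adjusted p = 0.000542) and 1.32 ± 0.21 in NC (adjusted p = 1.26e-05).

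Other abundant overlap peaks were lower in IP than in IN. CCDC51/TMA7 places the start of TMA7, a small protein tied to translation in yeast, inside CCDC51, which encodes a mitochondrial potassium channel subunit. Its peak at chr3:48440188-48440426 had 2190, 2070 and 2040 CPM in KD IP against 3390, 3160 and 3060 CPM in KD IN, and 2230, 2160 and 2360 CPM in NC IP against 3450, 3230 and 4000 CPM in NC IN. Every IP library lay below every IN library, with a log2 of -0.61 ± 0.10 in KD (adjusted p = 1.29e-05) and -0.66 ± 0.10 in NC (adjusted p = 3.63e-06). The printed TMA7 window has 119 of its 300 bases in this peak.

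GNG5/SPATA1 (chr1:84506360-84506657) had 13.9, 22.9 and 23.0 CPM in KD IP against 59.9, 102 and 158 CPM in KD IN. In NC it had 6.36, 4.98 and 10.7 CPM in IP against 40.9, 80.9 and 76.3 CPM in IN. Both IP groups lay below their inputs, by -2.41 ± 0.34 in KD (log2, adjusted p = 2.39e-06) and -3.15 ± 0.40 in NC (adjusted p = 4.95e-07). The authors had listed this peak with a deposited fold of 11.1, but its deposited q-value for the call was 0.222. PET100/STXBP2 (an assembly factor of cytochrome c oxidase and a syntaxin-binding protein of granule release), a same-strand pair with a common start whose peak lay near the 3′ end of PET100 at chr19:7631011-7631480, had 53.9, 45.3 and 49.0 CPM in KD IP against 156, 152 and 146 CPM in KD IN, and 45.6, 48.6 and 43.4 CPM in NC IP against 199, 159 and 128 CPM in NC IN. Its IP over IN was -1.61 ± 0.18 in KD (adjusted p = 9.29e-08) and -1.82 ± 0.18 in NC (adjusted p = 1.63e-08), and its deposited fold was 44.4.

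DNAJC7/NKIRAS2 (a heat shock co-chaperone and a regulator of NF-kappa-B inhibitors) had 70.4, 74.7 and 67.7 CPM in KD IP against 174, 157 and 192 CPM in KD IN, and 75.8, 77.2 and 104 CPM in NC IP against 161, 160 and 138 CPM in NC IN. IP was lower in both, by -1.29 ± 0.17 in KD (log2, adjusted p = 7.93e-07) and -0.84 ± 0.17 in NC (adjusted p = 0.0002). A separate peak in DNAJC7 alone was lower in IP too, at -1.53 in KD (adjusted p = 7.42e-09) and -1.48 in NC (adjusted p = 1.06e-08).

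**Figure D3:**
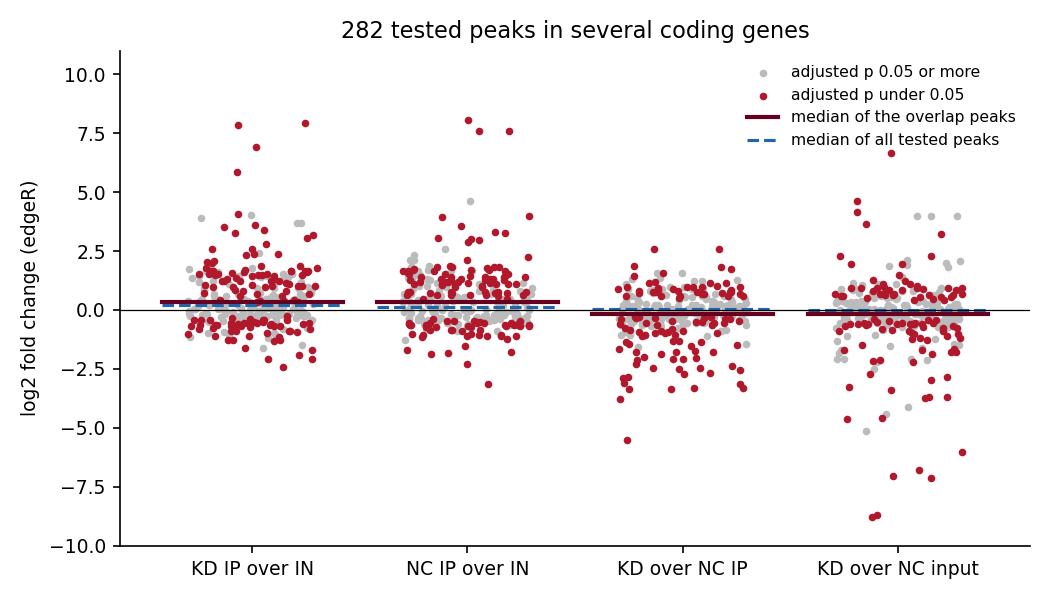
Log2 fold changes (y axis, edgeR) of the 282 tested overlap peaks in 4 comparisons (x axis), coloured by adjusted p, with the median of the overlap peaks (solid line) and of all tested peaks (broken line). The medians of the overlap peaks are 0.33 and 0.34 for IP over IN in KD and NC, -0.16 for KD over NC in IP and -0.17 in input.

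Ahead of the KD and NC values below, the input libraries were set beside markers of the labelled cell line and of other cells. The marker lists were chosen with earlier results of these data known. Their counts therefore describe the libraries and do not test the label. Of 25 macrophage and monocytic genes, 16 had a peak and 9 had none, among them CD14, CSF1R and PTPRC. Their summed level was 4760 to 4930 CPM in KD IN libraries and 2320 to 2640 CPM in NC IN libraries, and 11 of 13 tested were higher in KD and 0 lower. Of 17 genes that mark the human embryonic kidney line HEK293, 13 had a peak, with a summed level of 994 to 1110 CPM in KD IN and 8950 to 9740 CPM in NC IN. Of these, 12 were lower in KD, 1 was higher, and 4 had 0 reads in KD IN. NEFM, a neurofilament gene, had 5 reads in KD IN libraries and 14330 in NC IN libraries. Of 6 fibroblast genes 2 had a peak, at 19.1 to 25.4 CPM in KD IN and 19.0 to 34.7 CPM in NC IN, and no epithelial, lymphoid or erythroid gene of the lists had one. In the NC libraries several of these genes were abundant that had few or no reads in KD libraries, such as NEFL with 6 reads in KD IN and 1645 in NC IN, and BEX2 with 3 and 935. TCEAL9 had 2922 reads in KD IN against 5854 in NC IN, and HMGA2, the gene that was higher in KD, had 42 against 7. These lists move with every KD over NC difference below, their part in it was not tested, and METTL1 itself had no peak to check the knockdown. In such bulk libraries, fewer cells of a type and less RNA per cell cannot be told apart.

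In input, which measures the RNA level at the place, 45 of the 282 tested overlap peaks (16.0%) were higher in KD and 62 (22%) lower, where 17.9% of all tested regions were higher and 21.9% lower. In IP 40 (14.2%) were higher and 68 (24.1%) lower, where 20.9% of all tested regions were higher and 20.1% lower. The median log2 was -0.17 in input and -0.16 in IP, against -0.01 and 0.05 over all regions. With 1 entry per place, 29 of 170 were higher and 35 lower in input, and 26 higher and 42 lower in IP. KD over NC in input and in IP use different libraries.

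LARP6/LRRC49 (an RNA-binding protein of collagen mRNAs and a leucine-rich repeat protein), a head to head pair at chr15:70853525-70854157, had 13.3, 10.5 and 16.1 CPM in KD IP against 200, 190 and 159 CPM in NC IP. In input it had 11.2, 6.69 and 2.17 CPM in KD against 217, 144 and 141 CPM in NC. Every KD library lay far below every NC library, with a log2 of -3.79 ± 0.25 in IP (adjusted p = 1.21e-11) and -4.61 ± 0.32 in input (adjusted p = 1.83e-11). The capitals at the end of the printed LARP6 window are the start of this gene. LNX2/POLR1D at chr13:27620742-27621371 had 23.5, 24.9 and 42.2 CPM in KD IP against 344, 299 and 286 CPM in NC IP, and 9.14, 3.82 and 16.3 CPM in KD IN against 154, 105 and 112 CPM in NC IN. It was lower in KD by -3.37 ± 0.23 in IP (log2, adjusted p = 2.04e-11) and -3.69 ± 0.32 in input (adjusted p = 1.05e-09).

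JAM3/NCAPD3 (a junctional adhesion molecule and a condensin II subunit) at chr11:134151402-134151612 had 0 reads in all 3 KD IN libraries, against 35.6, 43.0 and 42.8 CPM in NC IN libraries. Taking 3 counts for the 3 libraries together as the floor, this is at least 39.5-fold lower in KD (adjusted p = 3.32e-07). In IP it had 0.533, 1.49 and 1.86 CPM in KD against 14.9, 8.72 and 11.3 CPM in NC, a log2 of -3.10 ± 0.62 (adjusted p = 0.000297). GDF1/CERS1 (a growth factor and a ceramide synthase encoded on 1 shared transcription unit) at chr19:18878698-18878907 had 1.6, 4.48 and 4.97 CPM in KD IP against 28.1, 25.5 and 27.1 CPM in NC IP, a log2 of -2.85 ± 0.51 (adjusted p = 7.38e-05). Both pairs kept their KD and NC libraries apart in IP.

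Smaller decreases were seen at abundant pairs. HNRNPH3/RUFY2 (a splicing regulator and an endosomal adaptor protein), tail to tail at chr10:68341246-68342058, had 442, 437 and 397 CPM in KD IP against 722, 779 and 755 CPM in NC IP, and 485, 520 and 514 CPM in KD IN against 810, 867 and 919 CPM in NC IN. It was lower in KD by -0.82 ± 0.10 in IP (adjusted p = 2.88e-07) and -0.77 ± 0.10 in input (adjusted p = 1.19e-06). MRPL43/TWNK, with the values given above, was lower by -0.90 ± 0.12 in IP (adjusted p = 1.48e-06) and -1.09 ± 0.14 in input (adjusted p = 7.28e-07). DSE/TSPYL1 was lower in input, at -0.60 ± 0.11 (adjusted p = 0.000105), and in IP its difference was -0.23 ± 0.11 (adjusted p = 0.085).

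CMSS1/FILIP1L had the smallest p among the overlap peaks that were higher in KD IP. FILIP1L, a filamin-interacting protein, lies within CMSS1, a ribosomal small subunit factor, on the other strand. The peak at chr3:99850493-99850702 had 237, 256 and 231 CPM in KD IP against 78.0, 52.3 and 71.1 CPM in NC IP, and 415, 306 and 427 CPM in KD IN against 130, 153 and 124 CPM in NC IN. The groups were far apart, at 1.84 ± 0.16 in IP (log2, adjusted p = 1.22e-09) and 1.5 ± 0.16 in input (adjusted p = 4.66e-08). OXNAD1/RFTN1 (an oxidoreductase and raftlin, a lipid raft protein), tail to tail at chr3:16316795-16317095, had 474, 466 and 461 CPM in KD IP against 215, 209 and 207 CPM in NC IP. In input it had 386, 366 and 368 CPM in KD against 182, 140 and 205 CPM in NC. It was higher in KD by 1.15 ± 0.12 in IP (adjusted p = 2.71e-08) and 1.08 ± 0.13 in input (adjusted p = 2.74e-07).

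USP35/GAB2 (a deubiquitinase and a signalling adaptor of receptor kinases), tail to tail, had its longer peak at chr11:78217892-78218819. It had 657, 570 and 457 CPM in KD IP against 278, 384 and 313 CPM in NC IP, and 324, 300 and 333 CPM in KD IN against 175, 154 and 170 CPM in NC IN. All KD libraries lay above the NC libraries of their kind, at 0.79 ± 0.13 in IP (log2, adjusted p = 3.28e-05) and 0.94 ± 0.15 in input (adjusted p = 1.78e-05). SLC16A3/CSNK1D (the lactate exporter MCT4 and casein kinase 1 delta) at chr17:82238762-82239121 had 294, 281 and 274 CPM in KD IP against 163, 171 and 198 CPM in NC IP, and 342, 399 and 357 CPM in KD IN against 229, 240 and 272 CPM in NC IN. It was higher in KD by 0.68 ± 0.12 in IP (adjusted p = 7.27e-05) and 0.57 ± 0.13 in input (adjusted p = 0.000808). RSPH14/BCR (a radial spoke protein and the BCR kinase), head to head at chr22:23180565-23180775, had 26.7, 42.3 and 19.2 CPM in KD IP against 6.36, 4.36 and 3.78 CPM in NC IP, 2.58 ± 0.53 higher (adjusted p = 0.000305).

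**Figure D4:**
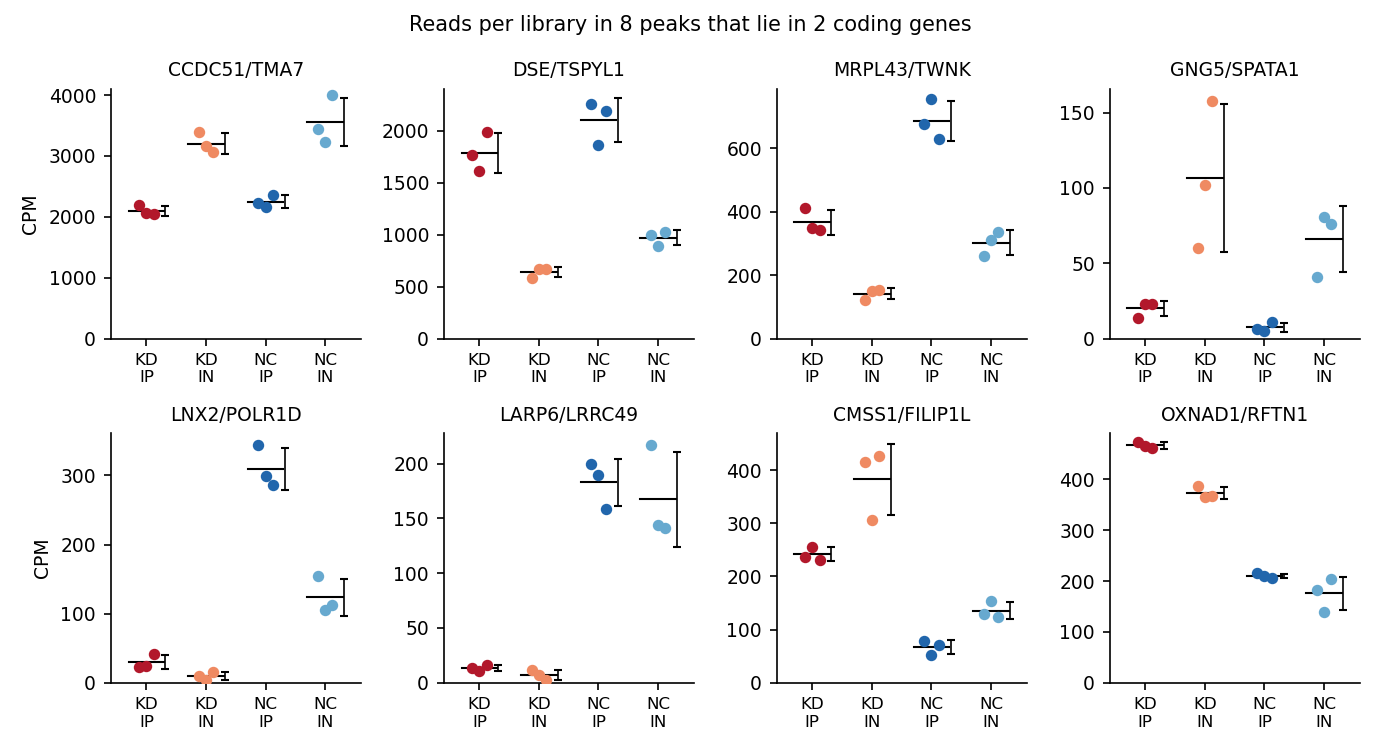
CPM (y axis) in each of the 12 libraries for 8 overlap peaks, by group (x axis), with the mean (line) and the SD (bar) of the 3 libraries. LNX2/POLR1D and LARP6/LRRC49 lie near 0 in KD libraries, CMSS1/FILIP1L and OXNAD1/RFTN1 lie higher in KD than in NC, and CCDC51/TMA7 and GNG5/SPATA1 lie lower in IP than in IN.

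Since reads of an overlap peak were not assigned to 1 of its genes, the most-read peak of each gene outside the overlap was set beside it. In RFTN1 alone, a peak with 327 reads in KD IP and 140 in KD IN, against 90 in NC IP and 34 in NC IN, was higher in KD by 1.77 in IP (adjusted p = 0.000105) and 1.83 in input (adjusted p = 0.000545), while OXNAD1 had no peak of its own. In HNRNPH3 alone, a peak was lower in KD by -0.60 in IP (adjusted p = 1.61e-05) and -0.67 in input (adjusted p = 5.42e-06), close to the overlap peak, and RUFY2 had none. In BCR alone, a peak was higher in KD by 1.5 in IP (adjusted p = 0.000209) and 0.87 in input (adjusted p = 0.0329), and RSPH14 had none. In USP35 alone, a peak with 774 reads in KD IP and 143 in KD IN, against 649 in NC IP and 101 in NC IN, did not pass between KD and NC (0.17 in IP, adjusted p = 0.54, and 0.33 in input, adjusted p = 0.359), unlike the overlap peak, though the difference between the peaks was not tested, and GAB2 had none. In CSNK1D alone, a peak with 633 reads in KD IP and 362 in KD IN, against 453 in NC IP and 345 in NC IN, did not pass either (0.37 in IP, adjusted p = 0.117, and -0.09 in input, adjusted p = 0.743), while SLC16A3/CSNK1D was higher in KD, and the difference was not tested. LARP6, LRRC49, POLR1D, CMSS1, FILIP1L, GNG5 and SPATA1 had no peak outside their overlap.

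By gene family, RNA polymerase and splicing genes took part in 19 overlap peaks from 10 gene sets. Of 15 tested, 2 were higher and 8 lower in KD in input, and the same counts held in IP, with a median log2 of -0.44 in input and -0.52 in IP, where over all tested regions 17.9% were higher and 21.9% lower in input, and 20.9% higher and 20.1% lower in IP. The entries count some places more than once, such as 2 at LNX2/POLR1D and 4 at POLR1G/ERCC1. LNX2/POLR1D, HNRNPH3/RUFY2 and POLR1G/ERCC1 were among those lower. The plus-strand KD peak of POLR1G/ERCC1, chosen after its values were seen, had 143, 141 and 139 CPM in KD IP against 183, 216 and 211 CPM in NC IP (-0.53 ± 0.13, adjusted p = 0.00211). In the ubiquitin system, 22 overlap peaks from 10 gene sets included 6 tested, and 4 of them, all at USP35/GAB2, were higher in KD in input and in IP. In NC those 4 were also higher in IP than IN, and in KD the 4 higher in IP were 2 at USP35/GAB2 and 2 at TRIM14/NANS (an antiviral adaptor protein and the sialic acid synthase). Of all tested regions, 22.7% were higher in IP than IN in NC and 23.5% in KD. The TRIM14/NANS call (2.37, adjusted p = 0.0369) was lost under the replicate block (adjusted p = 0.101), by DESeq2 (adjusted p = 0.0601), with no filter (adjusted p = 0.0585), without KD IN replicate 3 (adjusted p = 0.0841) and without KD IN replicate 1 (1.78, adjusted p = 0.151), and its log2 was 3.19 without KD IN replicate 2.

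Solute carrier genes took part in 29 overlap peaks, of which 12 were tested, with 8 higher and 2 lower in IP than IN in KD, and likewise 8 and 2 in NC. Of all tested regions, 23.5% were higher and 21.4% lower in KD, and 22.7% higher and 24% lower in NC. For KD over NC in IP, 20.9% of them were higher and 20.1% lower. The 3 tested peaks with a mitochondrial ribosomal protein gene were higher in IP in both conditions and lower in KD IP than NC IP. They lay at MRPL43/TWNK and at GGA3/MRPS7 (a trans-Golgi sorting adaptor with a ribosomal protein), which was entered in both peak sets and had 172, 181 and 171 CPM in KD IP against 207, 211 and 258 CPM in NC IP (-0.37 ± 0.14, adjusted p = 0.0371). Among 3 tested peaks with a cytosolic ribosomal protein gene, 1 was lower in KD IP. This was NKIRAS1/RPL15, with 19.2, 29.9 and 20.5 CPM in KD IP against 64.2, 94.0 and 62.9 CPM in NC IP (-1.66 ± 0.31, adjusted p = 0.000109).

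Of the other families, zinc finger genes took part in 37 overlap peaks, of which 8 were tested, with 2 higher and 1 lower in KD input and 0 called in KD over NC IP. For KD over NC, 17.9% of all tested regions were higher and 21.9% lower in input, and 20.9% higher and 20.1% lower in IP. For IP over IN, 23.5% were higher and 21.4% lower in KD, and 22.7% higher and 24% lower in NC. Differences of these families from those shares were not tested. Respiratory chain and import genes had 7 tested peaks of 9, with 0 higher and 2 lower in KD input. Both calls were the NC entries of NDUFC1/NAA15 on opposite strands, the same place counted again (-0.59, adjusted p = 0.0366, and -0.55, adjusted p = 0.0493), and the calls were lost with library size alone (adjusted p = 0.0745 and 0.0983), with no filter, by DESeq2 and without NC IN replicate 2 (-0.37 and -0.36, adjusted p = 0.248 and 0.261), while the KD entries there did not pass (adjusted p = 0.057 and 0.0767). TMEM genes had 2 tested of 16. Of these, GRIN3B/TMEM259 was lower in IP than IN in KD (-1.0, adjusted p = 4.41e-05) and in NC (-1.06, adjusted p = 1.35e-05) and lower in KD input (-0.46, adjusted p = 0.0339), while the most-read peak in TMEM259 alone was higher in KD input (0.61, adjusted p = 0.00934). RAB and membrane traffic genes had 2 tested of 10, with 1 higher in IP than IN in NC, FKBP11/ARF3 (1.78, adjusted p = 0.0318), a call lost under the replicate block (adjusted p = 0.0903) and without NC IP replicate 1 or 3 or any of the NC IN replicates (adjusted p = 0.0557 to 0.103). The clustered protocadherin and UGT1A genes, which share exons, held 0 overlap peaks.

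The enrichment change is the log2 of IP over IN in KD minus the same log2 in NC, and asks whether the knockdown altered the m7G signal beyond the change in RNA level. None of the 282 tested overlap peaks passed, and 0% of all 5113 tested regions were called. By edgeR, 34 overlap peaks had an unadjusted p under 0.05, and the smallest adjusted p was 0.132. DESeq2 called 1 overlap peak. The median log2 was 0.10, against 0.08 over all regions. On data simulated from the mean counts, the fit recovered 42.7% of 2-fold and 71.9% of 4-fold changes in this contrast, of 96 tested for each. The simulation gave all groups the same mean apart from the changed regions. It therefore lacks the differences between groups seen here, and recovery in the real data may differ.

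FXR2/SHBG had the smallest p. FXR2, a relative of the fragile X protein, starts inside SHBG, the gene of sex hormone-binding globulin, on the other strand, and the peak at chr17:7614599-7614897 covers that start. It had 25.6, 24.9 and 16.8 CPM in KD IP and 0 reads in all 3 KD IN libraries, at least 22.4-fold higher in IP (adjusted p = 4.7e-06). In NC it had 46.1, 30.5 and 28.3 CPM in IP against 4.19, 22.7 and 12.7 CPM in IN, a log2 of 1.44 ± 0.47 (adjusted p = 0.0159). The enrichment change was fitted at 6.49 ± 1.49 (adjusted p = 0.132), at 5.84 without NC IN replicate 2 and at 6.90 without NC IN replicate 1, and a fitted value against 0 reads depends on the prior count. A peak in FXR2 alone had 101 reads in KD IP and 20 in KD IN, against 163 in NC IP and 48 in NC IN, with an enrichment change of 0.65 (adjusted p = 0.715), and SHBG had no other peak.

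In the authors' deposited table, 78 regions (0.783%) had an adjusted p under 0.05 for the change of enrichment, 3 of them overlap peaks. The signs of its log2 values, taken as KD over NC, matched those fitted here in 89.36% of tested regions. EMG1/LPCAT3 (a ribosome biogenesis methyltransferase and a lysophospholipid acyltransferase) stood at 10.9 (adjusted p = 0.0413 in the authors' deposited table) on 8 reads in KD IP and 0 in KD IN, against 3 in NC IP and 25 in NC IN. HERC3/NAP1L5 (a ubiquitin ligase, and an imprinted gene without introns that lies inside it) stood at -4.14 (adjusted p = 0.0483 in the authors' deposited table) on 20 and 45 reads in KD IP and IN, against 15 and 2 in NC IP and IN. KYAT1/LRRC8A (a kynurenine aminotransferase and the volume-regulated anion channel subunit) stood at -2.53 (adjusted p = 0.0461 in the authors' deposited table) on 148 and 90 reads in KD IP and IN, against 59 and 6 in NC IP and IN. Each of these calls rests on a group with 6 reads or fewer over its 3 libraries.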

How the data were processed

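m7G meRIP-seq libraries of THP-1 cells were analysed from 1 deposited table of peaks. Reads were trimmed with fastp 0.23.4 and placed on GRCh38, per the submitters' processing notes; the aligner, peak caller and counter are not given in the sources used here. The deposited read counts per peak and library were whole numbers and not normalized. The authors' fold per peak is a ratio of IP over input, and the p-values and q-values, the log2 change between groups and the peak length (in bases) are the authors' deposited values. Peak names showed that the authors called peaks separately for KD and NC. The depth of a whole library is not known from these counts.

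Peak starts were taken as counted from 0, since adding 1 placed 324 of them on a gene start, against 5 as given. Members are table entries overlapping at least 2 coding genes of RefSeq (GRCh38.p14) by 1 base or more. The members and gene lists were chosen with earlier results of these data known. The deposited counts entered edgeR 4.0.16 under R 4.3.3 (TMM, filterByExpr with a minimum count of 10 and total of 15, 4 group means, quasi-likelihood test, 8 residual degrees of freedom) over 5113 regions, with Benjamini-Hochberg adjustment and a threshold of 0.05; standard errors come from that fit. DESeq2 1.42.0 was an alternative. Peaks were named by a rule: in each comparison those with the highest and lowest log2 among calls whose libraries did not overlap (for the enrichment change, the smallest p), the pairs with the most peaks and with the most reads, the authors' calls, and the smallest p of each gene family. Intervals and floors cover counting error only. The fit was tested on simulated data, with the same mean in all groups apart from the changed regions. Replicate numbers appear in all groups, and same-numbered libraries correlated at -0.0877 to 0.0677 in their deviations, none above 0.1. For KD IP and KD IN the same-numbered values were 0.0514, 0.0625 and 0.0483, and those of unlike number ran from -0.0528 to -0.000438. For NC IP and NC IN the same-numbered values were 0.0677, 0.0236 and -0.019, and the others ran from -0.0644 to 0.0453. Such low values cannot show whether same-numbered libraries were paired, so the main fit used no pairing and a replicate block was an alternative. Alternatives were scaling, the filter, DESeq2, a replicate block, each replicate left out, stricter overlap, 1 entry per place and named genes only; leaving out mitochondrial peaks was chosen after seeing the data. Some peaks are not reported here.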

Additional observations from a re-analysis of the deposited data

How the results depend on the processing

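Counts of overlap peaks past the threshold were repeated under each alternative. For the enrichment change, none was called by edgeR with TMM, while 2 were called with no filter on low counts and 1 by DESeq2, each time a FXR2/SHBG entry (log2 6.37, adjusted p = 0.0101, and 5.99, adjusted p = 0.0288, with no filter, and 5.38, adjusted p = 0.0422, by DESeq2), and 0 in every fit that left out a library. With 1 entry per place the counts were 79 for KD IP over IN, 72 for NC IP over IN, 64 for KD over NC in input and 68 in IP, since only 170 entries were then tested, and the excess of higher over lower in IP over IN was no longer seen (40 higher and 39 lower in KD, 37 and 35 in NC). With adjusted p under 0.01, 87 remained past the threshold for KD IP over IN. Leaving out each library in turn gave 110 to 139 for KD IP over IN, 110 to 156 for NC IP over IN, 101 to 116 for KD over NC in input and 87 to 125 in IP. With the replicate block the counts were 0, 127, 122, 105 and 105, in the order enrichment change, KD IP over IN, NC IP over IN, and KD over NC in input and in IP, and the block moved no count by over 1.5 times. The shared percentage was 29.98% when 50% of both peaks had to overlap. It was 14.72% when both peaks had to lie in the upper 50% of their set by the authors' fold. For 94 named results, 1584 alternative values gave 1497 on the same side of the threshold with the same direction, 78 no longer past it, 8 newly past it and 1 reversed, FKBP11/ARF3 in KD IP over IN, which ranged from -0.445 to 0.005 with a library left out. The fitted KD over NC input of FXR2/SHBG ranged from -7.58 to -6.53 with a library left out. The cause of these changes was not tested, except where fewer entries were tested. Low counts limit 325 of the 607 overlap peaks, which were not tested, and simulated 2-fold changes were recovered in 58.33% of regions for KD IP over IN and 60.44% for KD over NC input.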
